A study of Mus musculus with 24 samples.

Results

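The 41 genes described here are the collagen chain genes of the mouse heart array, that is, every gene whose symbol reads Col, a number, a and a number. They were taken by symbol alone, with no filter on their values, from the 19057 genes with a probe on the Illumina MouseWG-6 v2 array. They were chosen with earlier results of these data known. Their 91 probes, of 45281 on the array, were read in whole hearts of female FVB/N mice on 24 arrays in 6 groups. Hearts came from wild type mice, from the severe line MHC-CELFΔ-10 and from the mild line MHC-CELFΔ-574 at 3 and 24 weeks of age. Both lines are hemizygous for a transgene for a nuclear dominant negative CELF protein, which the α-myosin heavy chain promoter expresses in heart muscle cells, by the study's account with less of the protein in the mild line. The wild type mice are littermates without the transgene, 4 at each age, with 2 from the litters of each line. The mild and the severe line each had 3 mice at 3 weeks and 5 mice at 24 weeks. The promoter is active in heart muscle cells and not in the fibroblasts that make most of the collagen. The study asked how gene expression differs from wild type at the 2 ages, in a line whose heart function recovers with age and in a line in which it does not.

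Collagens are proteins of 3 chains wound into a triple helix, and each chain has its own gene. Fibrillar collagens such as types I and III build the fibres that give the heart wall its stiffness, whereas the type IV chains form the sheet of the basement membrane around muscle cells and vessels. Fibroblasts are the main source of fibrillar collagen in the heart, and basement membrane chains are also made by endothelial and smooth muscle cells. Around birth and in early life the growing heart lays down much of its matrix, and deposition of further collagen in diseased hearts is known as fibrosis.

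The start regions of the genes are shown first for 3 members. The results below describe these members, and their windows carry different sets of motifs. They are a chain of type I, the chain of type III, and a chain of type VIII, which forms a hexagonal network around vessels. Expression was not tested against these sequences or motifs. RefSeq sequence of the GRCm38.p6 assembly was on hand for 33 of the 41 genes, and *Col1a1*, *Col2a1*, *Col4a3*, *Col5a2*, *Col9a3*, *Col14a1*, *Col22a1* and *Col26a1* were not among them. Each window holds the 250 bases before the start site, written 5′ to 3′ on the strand of the gene. Capitals mark the TATA box letters TATAAA, the box CCAAT and the GC box GGGCGG on either strand, so that a GC box on the other strand reads CCGCCC. The windows lie at chr6:4505368-4505617 on the plus strand for *Col1a2*, at chr1:45311288-45311537 on the plus strand for *Col3a1* and at chr16:57754738-57754987 on the minus strand for *Col8a1*.
Col1a2: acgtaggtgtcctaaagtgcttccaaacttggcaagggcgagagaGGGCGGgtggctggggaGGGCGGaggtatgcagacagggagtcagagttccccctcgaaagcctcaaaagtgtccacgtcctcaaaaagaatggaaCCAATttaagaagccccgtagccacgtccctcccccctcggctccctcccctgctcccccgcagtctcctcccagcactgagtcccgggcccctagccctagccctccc
Col3a1: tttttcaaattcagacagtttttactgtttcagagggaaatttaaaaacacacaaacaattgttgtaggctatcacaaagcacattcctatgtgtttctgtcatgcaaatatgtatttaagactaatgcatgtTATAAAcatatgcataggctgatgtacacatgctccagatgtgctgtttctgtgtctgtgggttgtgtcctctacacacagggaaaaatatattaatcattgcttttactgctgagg
Col8a1: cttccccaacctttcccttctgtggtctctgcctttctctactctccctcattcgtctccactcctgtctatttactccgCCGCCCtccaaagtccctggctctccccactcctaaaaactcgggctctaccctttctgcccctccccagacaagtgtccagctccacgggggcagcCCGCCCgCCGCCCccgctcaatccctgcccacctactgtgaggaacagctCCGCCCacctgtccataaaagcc

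The *Col1a2* window held 1 CCAAT and 2 GGGCGG, the *Col3a1* window 1 TATAAA, and the *Col8a1* window 4 GGGCGG. Over the 33 collagen windows, TATAAA was found in 5, CCAAT in 12 and GGGCGG in 21. In all 32851 windows of this length, TATAAA was found in 12.4%, CCAAT in 33.8% and GGGCGG in 32.7%. A match is a run of letters and not a proven site. By the start site of 1 window per gene, *Col4a1* and *Col4a2* start 21 bases apart on opposite strands of chromosome 8. The *Col4a1* gene as annotated reaches beyond its start site used here, 11312826, to position 11312889.

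On every transgenic array the *Celf4* probe, which marks the transgenic hearts, was at 11.16 to 12.72 on the log2 scale, and on every wild type array it was at 6.33 to 6.49. At 24 weeks it was at 12.03 to 12.32 in the mild and at 11.16 to 11.85 in the severe line, so this probe was brighter in the mild line without overlap, the reverse of that account of the protein. At 3 weeks it was at 12.29 to 12.32 and at 11.19 to 12.72. Between 32% and 44.4% of all probes had a detection p-value under 0.05 on an array. The arrays fell into 2 sets of 12 by their lowest raw intensity, which was 54.2 to 62.8 in one set and 38.9 to 47.2 in the other, and each set held arrays of all groups. In runs of 6 arrays with successive title numbers, 1662 of the 12011 genes tested differed between the 4 runs in a limma F test, and *Col8a1* was the 1 collagen gene among them. The airway gene *Scgb1a1* was bright on 3 arrays, with raw intensities of 10148 on the mild line array 4 of 24 weeks, 3814 on the severe line array 4 of 24 weeks and 2962 on the wild type array 3 of 3 weeks. The 9 heart muscle markers tested passed no comparison, and their summed linear level was 143448 to 169014 on the severe line arrays of 24 weeks. The hearts are separate animals by the labels.

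A gene is called detected on an array where its detection p-value, the share of negative control beads that were as bright, was under 0.05. With the brightest probe of each gene, 14 of the 41 genes were detected on all 24 arrays and 6 on none. The 14 were *Col1a1*, *Col3a1* and *Col5a1* of the fibrillar class, *Col4a1*, *Col4a2*, *Col4a4* and *Col4a5* of the basement membrane, *Col6a1* and *Col6a2* of type VI, *Col14a1* and *Col16a1*, which coat fibrils, *Col15a1* and *Col18a1*, which tie basement membranes to the matrix around them, and *Col8a1*. The 6 were *Col4a6*, *Col6a4*, *Col6a6*, *Col9a3*, *Col10a1* and *Col19a1*. Type X is the collagen of growing cartilage and type IX is a cartilage collagen.

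Detection of the 41 genes differed by group. In wild type hearts 17 genes were detected on every array at 3 weeks and 14 at 24 weeks, and 12 and 17 were detected on no array. The mild line had 19 genes detected on every array at 3 weeks and 16 at 24 weeks. The severe line had 22 and 20, and only 9 and 8 of the 41 were detected on none of its arrays. These counts depend on the number of arrays in a group, which was not the same in all groups. *Col5a2*, a chain of type V that regulates fibril width, was detected on 3 of 4 wild type arrays at 3 weeks, on 0 of 4 at 24 weeks, on 1 of 5 mild line and on 5 of 5 severe line arrays at 24 weeks. *Col2a1*, the main cartilage fibril chain, was detected on 0 of 4 wild type arrays and on 5 of 5 severe line arrays at 24 weeks. *Col22a1*, a collagen known at junctions of muscle and tendon, had a median detection p-value of 0.4423 on the wild type arrays of 3 weeks and was detected on 0 of 4 of them. At 24 weeks it was detected on 1 of 4 wild type, 3 of 5 mild line and 5 of 5 severe line arrays. *Col26a1*, a collagen first described in testis and ovary, went the other way with age, with 4 of 4 wild type arrays at 3 weeks and 0 of 4 at 24 weeks, where its median detection p-value was 0.2804.

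**Figure D1:**
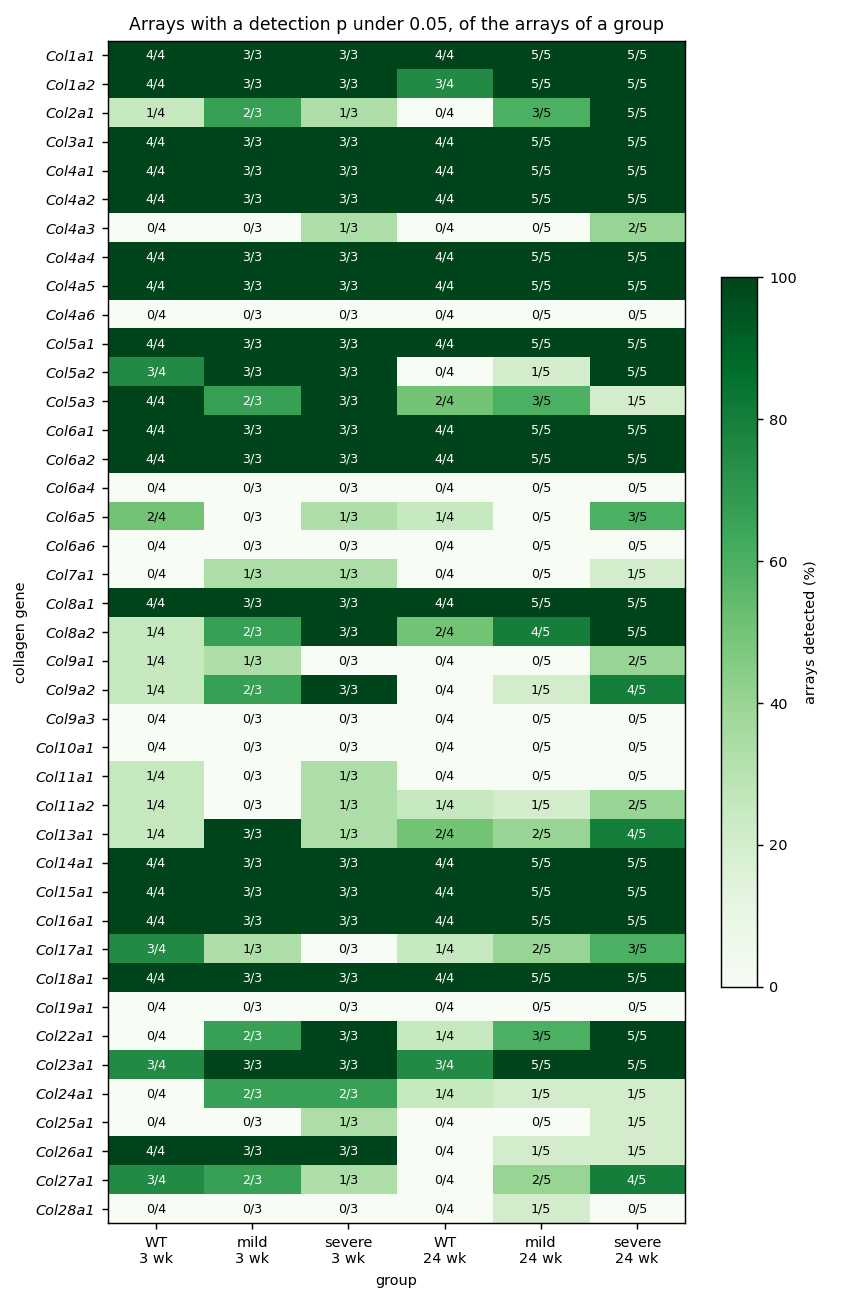
Number of arrays of each group on which each of the 41 collagen genes had a detection p-value under 0.05 (rows: genes; columns: the 6 groups; shade: percent of the arrays of the group). The 14 genes detected on all 24 arrays form the fully dark rows, *Col26a1* is dark only at 3 weeks, and *Col5a2* and *Col2a1* have 0 of 4 arrays in wild type hearts at 24 weeks and 5 of 5 in the severe line.

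For the tests, 12011 genes with a probe detected on at least 3 of the 24 arrays were fitted together in limma, with 1 probe per gene, and 32 of the 41 collagen genes were among them. The 9 others were *Col4a6*, *Col6a4*, *Col6a6*, *Col9a3*, *Col10a1*, *Col11a1*, *Col19a1*, *Col25a1* and *Col28a1*. Differences are on the log2 scale of the quantile-normalized intensity, so that 1 is a change of 2-fold, and a gene is called higher or lower at a Benjamini-Hochberg adjusted p under 0.05 over all 12011 genes. The filter lets in genes through the group in which they are high, so counts are also given for the 41 genes in a fit without the filter and for the 14 genes detected everywhere. In whole hearts, fewer cells of a type and less RNA per cell cannot be told apart.

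Collagen transcripts were lower in adult than in juvenile wild type hearts. From 3 to 24 weeks 14 of the 32 genes fell and 0 rose, where 1.61% of all genes tested fell. The chains that fell came from the fibrillar class, the basement membrane, type VI and the vessel-associated types XV and XVIII, together with *Col16a1* and *Col26a1*. With the arrays scaled to a common median in place of quantile normalization, 4 of the 14 calls remained, and the adjusted p became 0.127 for *Col1a1*, 0.417 for *Col3a1*, 0.413 for *Col4a2*, 0.107 for *Col15a1* and 0.236 for *Col18a1*, with differences that were still negative. In the fit without the filter 13 of the 41 genes fell, and the share of all 19057 genes that fell in that fit was not counted. Of the 14 genes detected everywhere 12 fell, with a median difference of -1.04, and 2.21% of all genes detected on every array fell.

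*Col1a1* encodes the chain present as a pair in type I collagen, the main fibre of the heart wall. Its log2 values were 9.25, 8.70, 8.48 and 9.11 on the wild type arrays of 3 weeks and 6.96, 7.80, 6.90 and 7.71 on those of 24 weeks. It fell by 1.55 (SE 0.26, limma adjusted p = 7.90e-04), and the groups did not overlap. *Col1a2*, its partner chain, was at 7.28, 7.50, 7.50 and 7.55 and later at 6.73, 6.75, 6.93 and 7.02. Its fall was smaller, at 0.60 (adjusted p = 4.63e-04), again with every adult array below every juvenile one. *Col3a1*, the chain of the finer type III fibres, was at 9.36, 8.78, 9.37 and 9.83 and then at 7.61, 8.44, 7.82 and 8.43, a fall of 1.26 (SE 0.25, adjusted p = 0.00408). Its arrays spread widely within each age, but the ages did not overlap. Of the 10 fibrillar genes tested, 4 fell in all, the 3 named and *Col5a1* (-1.15, adjusted p = 9.90e-07), and the class median was -0.32.

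The 2 main basement membrane chains were bright on every array, and of the 5 basement membrane genes tested 4 fell. *Col4a1* went from 12.51, 12.65, 12.60 and 12.58 at 3 weeks to 11.13, 11.13, 11.18 and 11.25 at 24 weeks. This fall of 1.41 (SE 0.11, adjusted p = 1.09e-08) exceeded the spread, since the arrays of either age lay within a narrow band. *Col4a2*, which joins 2 chains of *Col4a1* in each molecule, went from 12.09, 11.85, 12.04 and 12.22 to 10.87, 11.04, 10.70 and 11.32 and fell by 1.07 (SE 0.16, adjusted p = 2.13e-04). The minor chains *Col4a5* (-0.76) and *Col4a4* (-0.30, adjusted p = 0.0318) also fell. The call of *Col4a4* was lost on leaving out 6 of the 8 arrays in turn and in 5 of 14 other settings.

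The type VI chains, which form beaded filaments next to basement membranes, and the multiplexins fell as well. *Col6a1* was at 11.70, 11.49, 11.71 and 11.42 at 3 weeks and at 10.53, 10.15, 10.69 and 10.56 at 24 weeks, a fall of 1.10 (adjusted p = 5.38e-04) without overlap. *Col6a2* was at 9.16, 8.95, 9.59 and 9.22 and then at 8.37, 8.09, 8.34 and 8.34, with a fall of 0.95 (adjusted p = 0.0443) that lay close to the threshold. *Col15a1*, found in the matrix of capillaries and muscle, fell by 1.12 (SE 0.13, adjusted p = 1.19e-05) from 9.84, 10.21, 10.23 and 10.15 to 8.94, 8.88, 8.82 and 9.30. *Col18a1*, whose C-terminal part is endostatin, fell by 1.02 (SE 0.17, adjusted p = 7.90e-04) from 10.12, 10.13, 10.10 and 10.26 to 9.06, 8.99, 9.18 and 9.30. No adult array reached a juvenile one in either multiplexin gene. Among the others *Col16a1* fell by 0.66 and *Col26a1* fell by at least 1.53-fold, whereas 0 of 3 transmembrane and 0 of 2 type VIII chains passed. Here and below, where a probe was detected on no array of a group, the fold is at least the ratio of the other group's mean to the lowest level that counted as detected, or to the probe's own level where that was higher. By a count of arrays, 17 of the 32 genes had all wild type arrays of 24 weeks below all of 3 weeks, and 5.25% of all genes did.

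**Figure D2:**
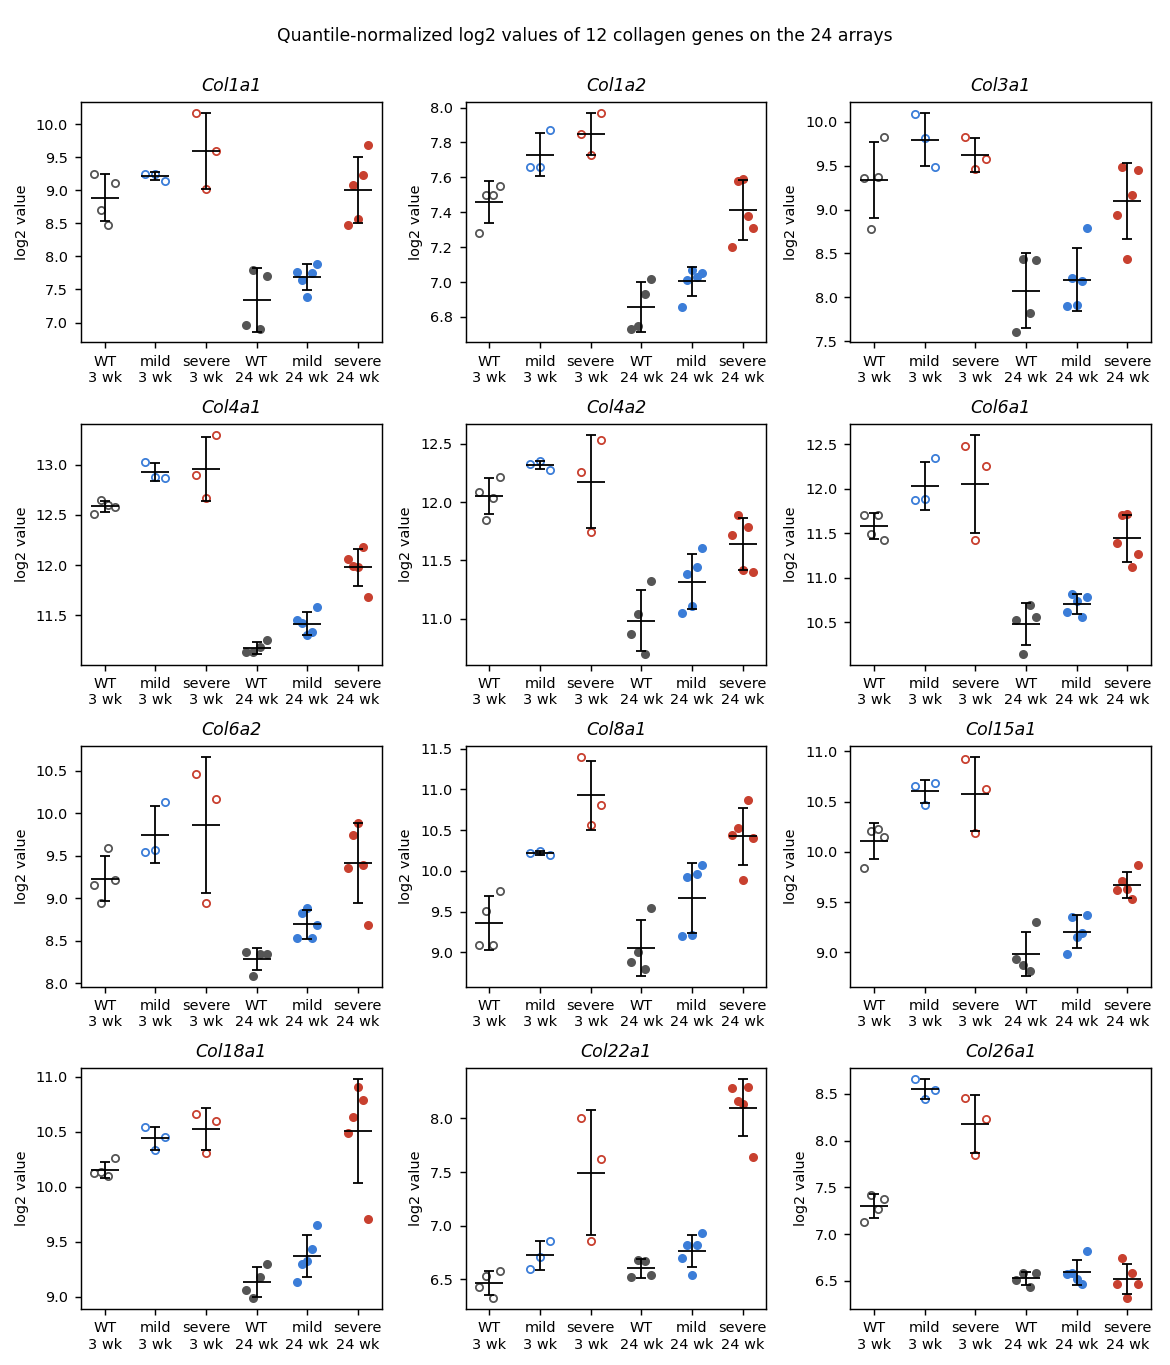
Quantile-normalized log2 values of 12 collagen genes on the 24 arrays (1 panel per gene; points: arrays, open at 3 weeks and filled at 24 weeks; lines: group mean and SD; each panel has its own axis). In wild type hearts *Col4a1* drops from 12.51 or more to 11.25 or less, the severe line at 24 weeks lies above wild type in *Col1a1*, *Col18a1* and *Col22a1*, and *Col26a1* stands out in both lines at 3 weeks only.

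In mild line hearts 15 of the 32 genes fell from 3 to 24 weeks and 0 rose, where 2.95% of all genes fell. The differences were -1.95 for *Col26a1* (adjusted p = 8.02e-11), -1.60 for *Col3a1*, -1.52 for *Col1a1*, -1.51 for *Col4a1* (adjusted p = 6.50e-09) and -1.39 for *Col15a1*. Of the 14 genes detected everywhere 12 fell, with a median of -1.06. In the severe line 8 of the 32 genes fell, where 3.67% of all genes did, and 2 rose, where 386 of all 12011 genes did. Among those that fell were *Col26a1* at -1.66 (adjusted p = 3.88e-09), *Col4a1* at -0.98 (adjusted p = 3.60e-06), *Col15a1* at -0.91, *Col4a5* at -0.75, *Col6a1* at -0.61, *Col9a2* at -0.58, *Col5a1* at -0.57 and *Col1a2* at -0.44. *Col22a1* rose by 0.61 (adjusted p = 0.0327) and *Col8a2*, the partner chain of *Col8a1*, by 0.55 (adjusted p = 0.0329). *Col18a1* had a difference of -0.02 (adjusted p = 0.981), *Col1a1* of -0.59 (adjusted p = 0.222) and *Col3a1* of -0.52 (adjusted p = 0.273) in that line. Of the 14 genes detected everywhere 5 fell in the severe line, with a median of -0.53. For both lines the share among all genes detected on every array was not counted. The calls of age within a line were not refitted under alternatives.

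At 24 weeks the severe line had higher collagen transcripts than wild type in 6 of the 8 classes. Of the 32 genes 19 were higher and 0 lower, where 8.26% of all genes were higher, and 6 of them were raised 2-fold or more, where 1.02% of all genes were. The 6 were *Col1a1*, *Col22a1*, *Col18a1*, *Col8a1*, *Col6a2* and *Col3a1*. In the fit without the filter 20 of the 41 genes were higher, and the share of all 19057 genes that were higher in that fit was not counted. All 14 genes detected everywhere were higher, with a median of 0.89, where 10.0% of all genes detected on every array were. The median over the 32 genes was 0.47, and that over all 12011 genes was 0.00. This comparison and the change with age share the wild type arrays of 24 weeks.

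Among the fibrillar genes, 6 of 10 rose in the severe line, with a class median of 0.32. *Col1a1* was at 8.47, 9.08, 8.56, 9.23 and 9.68 on the severe line arrays, against the wild type values of 6.90 to 7.80 given above. The difference of 1.66 (SE 0.24, adjusted p = 3.57e-05) was the largest of the 32 genes, and the lowest severe line array lay above the highest of wild type. *Col1a2* was at 7.20, 7.58, 7.59, 7.38 and 7.31 and was higher by 0.55 (SE 0.09, adjusted p = 1.16e-04), also without overlap. *Col3a1* was at 8.94, 9.49, 8.44, 9.16 and 9.45, higher by 1.02 (SE 0.23, adjusted p = 0.0033). Its severe line array 3 was level with the highest wild type array. *Col5a1* rose by 0.90 (adjusted p = 3.37e-06). *Col5a2* and *Col2a1*, detected on no wild type array of this age, rose by at least 1.2-fold (adjusted p = 0.0146) and at least 1.09-fold (adjusted p = 0.0171). *Col2a1* lost its call in 6 of 15 alternatives and *Col5a2* in 3, and against the wild type arrays of the own line the adjusted p was 0.116 and 0.108. The other 4 fibrillar genes, *Col5a3*, *Col11a2*, *Col24a1* and *Col27a1*, had differences of -0.08 to 0.20 and passed no test.

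Of the 5 basement membrane genes tested 4 rose in the severe line. *Col4a1* was at 12.06, 11.99, 11.98, 12.18 and 11.68 on the severe line arrays and was higher by 0.80 (SE 0.10, adjusted p = 6.94e-06), with all of them above the wild type arrays. *Col4a2* was at 11.72, 11.89, 11.42, 11.79 and 11.40 and was higher by 0.66 (SE 0.15, adjusted p = 0.00302). Its lowest severe line array lay just above the highest wild type array, and scaling to a common median ended its call (adjusted p = 0.144). *Col4a5* rose by 0.49 (adjusted p = 0.00636) and *Col4a4* by 0.45 (adjusted p = 8.19e-05), and *Col4a3* was at -0.06 (adjusted p = 0.781). The call of *Col4a5* was lost in 5 of 15 settings other than leaving out single arrays, among them scaling to a common median (adjusted p = 0.137). Its lowest severe line array was level with the highest wild type array, at 8.96. The class median was 0.49.

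Both tested multiplexins and 2 of 3 type VI chains rose. *Col18a1* was at 10.49, 10.63, 10.91, 10.79 and 9.71 on the severe line arrays and was higher by 1.38 (SE 0.16, adjusted p = 2.35e-06). Severe line array 5 was the low one, and it too lay above every wild type array. *Col15a1* was at 9.62, 9.71, 9.63, 9.53 and 9.87, higher by 0.69 (SE 0.13, adjusted p = 4.33e-04). *Col6a1* was at 11.39, 11.71, 11.72, 11.12 and 11.27, higher by 0.96 (SE 0.17, adjusted p = 2.58e-04). These 2 genes did not overlap with wild type either. *Col6a2* was at 9.36, 9.74, 9.89, 9.39 and 8.68, higher by 1.13 (SE 0.24, adjusted p = 0.00174), again with array 5 lowest and no overlap. *Col6a5*, a minor chain, was at 0.09 (adjusted p = 0.548).

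Both type VIII chains and 3 of 5 of the chains that bind fibrils without forming them (FACIT collagens) rose. *Col8a1* was at 10.44, 10.53, 9.89, 10.87 and 10.40 on the severe line arrays and at 8.88, 9.00, 8.79 and 9.55 on those of wild type, a difference of 1.37 (SE 0.22, adjusted p = 9.06e-05) without overlap. *Col8a2* was at 7.26, 7.27, 7.49, 7.28 and 8.18 and was higher by 0.87 (adjusted p = 1.16e-04). *Col22a1* was at 8.28, 8.16, 8.13, 8.29 and 7.64 against 6.52, 6.68, 6.67 and 6.54 in wild type. This rise of 2.83-fold (log2 SE 0.16, adjusted p = 5.50e-07) is measured against a group in which the probe was detected on 1 of 4 arrays. *Col16a1* rose by 0.88 and *Col14a1* by 0.80. No transmembrane collagen passed, and *Col7a1*, the anchoring fibril of skin, and *Col26a1* were at 0.13 and -0.01. By a count of arrays, 18 of the 32 genes had every severe line array above every wild type array, and 6.49% of all genes did.

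**Figure D3:**
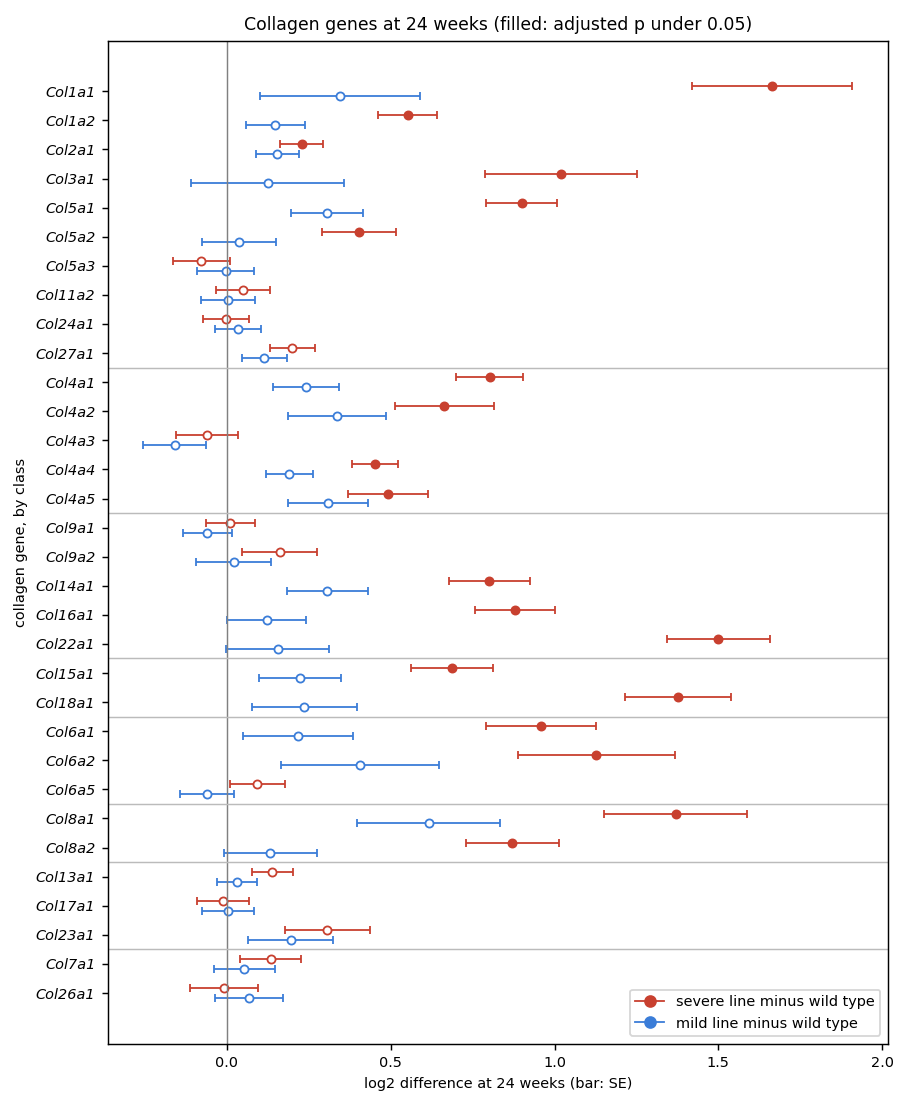
log2 differences from wild type at 24 weeks for the 32 collagen genes tested, by class (points: fitted difference; bars: SE; filled: adjusted p under 0.05). In the severe line 19 points are filled, up to 1.66 for *Col1a1*, and in the mild line none is, with *Col8a1* the highest at 0.62.

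The mild line at 24 weeks had 0 of 32 collagen genes past the limma threshold in either direction, where 0.425% of all genes were higher. At an unadjusted p under 0.05, 8 of the 32 were higher and 0 lower, and 943 of all 12011 genes passed in either direction. The differences ran from -0.16 to 0.62. *Col8a1* was at 9.20, 9.92, 9.21, 9.96 and 10.07, with a difference of 0.62 (SE 0.22, adjusted p = 0.328) and 2 arrays inside the wild type range. *Col1a1* was at 7.77, 7.64, 7.38, 7.75 and 7.89, which overlapped with wild type, with a difference of 0.35 (SE 0.24, adjusted p = 0.874). *Col4a1* was at 11.45, 11.42, 11.30, 11.33 and 11.58, with a difference of 0.24 (SE 0.10, adjusted p = 0.494). All 5 of these arrays lay above the wild type arrays of 11.13 to 11.25, although the gene did not pass. The same held for *Col6a2*, at 8.53 to 8.89 against 8.09 to 8.37 in wild type. It also held for *Col5a1*, at 9.51 to 9.64 against 9.16 to 9.33, and for *Col14a1*, at 7.98 to 8.27 against 7.67 to 7.97. How many of all genes did so was not counted.

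*Col18a1* was at 9.13, 9.30, 9.32, 9.43 and 9.65 in the mild line (difference 0.24, adjusted p = 0.862) and *Col3a1* at 7.90, 8.22, 7.91, 8.19 and 8.79 (difference 0.12, adjusted p = 0.991). Both overlapped with wild type. *Col22a1* was at 6.70, 6.82, 6.54, 6.82 and 6.93 (difference 0.16, adjusted p = 0.945). Over the 14 genes detected everywhere the median difference was 0.27. These values do not show that the mild line equals wild type.

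The severe and the mild line were compared directly at 24 weeks, on arrays that share no wild type sample. Collagens of the same 6 classes were higher in the severe line: 16 of the 32 genes were higher and 0 lower, where 5.94% of all genes were higher. Of the 14 genes detected everywhere 12 were higher, where 7.13% of all genes detected on every array were. *Col22a1* was higher by 1.34 (SE 0.15, adjusted p = 2.26e-06), *Col1a1* by 1.32 (SE 0.23, adjusted p = 4.93e-04) and *Col18a1* by 1.14 (SE 0.15, adjusted p = 2.63e-05). In these 3 genes every severe line array lay above every mild line array. *Col3a1* was higher by 0.89 (adjusted p = 0.00882), *Col8a1* by 0.75 (adjusted p = 0.0178), *Col6a1* by 0.74 (adjusted p = 0.00301), *Col6a2* by 0.72 (adjusted p = 0.0402), *Col4a1* by 0.56 (adjusted p = 4.40e-04), *Col15a1* by 0.46 (adjusted p = 0.0122) and *Col1a2* by 0.41 (adjusted p = 0.00263). *Col8a1*, *Col3a1* and *Col6a2* overlapped between the lines. *Col4a2*, at 0.33 (adjusted p = 0.151), and *Col4a5*, at 0.18 (adjusted p = 0.361), were not past the threshold. *Col6a2* was called by a narrow margin and lost the call on leaving out 9 of the 10 arrays in turn. *Col5a2* lost its call in 4 of these 10 fits and *Col8a1* in 3. With scaling to a common median the limma adjusted p became 0.0539 for *Col3a1*, 0.0562 for *Col4a1*, 0.0634 for *Col15a1* and 0.0992 for *Col8a1*.

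At 3 weeks the genes called were a type VIII chain, 2 fibril-binding chains, *Col26a1*, a minor basement membrane chain and the second chain of type I. In the severe line 6 of 32 were higher and 0 lower, where 2.66% of all genes were higher: *Col8a1*, *Col22a1*, *Col26a1*, *Col9a2*, *Col4a5* and *Col1a2*. In the mild line 1 of 32, *Col26a1*, was higher, where 1.07% of all genes were. In the fit without the filter these counts were 5 and 1 of 41, and of the 14 genes detected everywhere 2 and 0 were higher. The shares of all genes in the unfiltered fit, and of all genes detected on every array, were not counted here. Both lines were compared with the same 4 wild type arrays. With array weights the counts were 17 for the severe and 5 for the mild line. The mild line had 5 in a fit of the compared groups alone, 4 when blocked by run and 3 when blocked by replicate number. The shares of all genes called in these alternative fits were not counted.

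*Col8a1* was at 9.09, 9.51, 9.09 and 9.75 in wild type hearts of 3 weeks and at 11.40, 10.57 and 10.81 in the severe line. It was higher by 1.57 (SE 0.25, adjusted p = 4.37e-04) without overlap. In the mild line it was at 10.22, 10.25 and 10.19, also above every wild type array, with a difference of 0.86 (SE 0.25, adjusted p = 0.0754) that missed the threshold. *Col22a1* was at 6.43, 6.53, 6.33 and 6.58 in wild type, where its probe was detected on no array, and at 8.00, 6.86 and 7.62 in the severe line. It was at least 1.73-fold higher there (adjusted p = 0.00113), with severe line array 2 nearest to wild type. In the mild line *Col22a1* was at 6.60, 6.71 and 6.86 (difference 0.26, adjusted p = 0.708).

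*Col26a1* was the 1 collagen gene called in both lines at 3 weeks. It was at 7.13, 7.42, 7.27 and 7.38 in wild type, at 8.66, 8.45 and 8.54 in the mild line and at 8.46, 7.85 and 8.23 in the severe line. The mild line was higher by 1.25 (SE 0.12, adjusted p = 5.74e-07) and the severe line by 0.88 (SE 0.12, adjusted p = 8.49e-05), and neither overlapped with wild type. At 24 weeks it was at 6.51, 6.58, 6.44 and 6.58 in wild type, at 6.57, 6.59, 6.52, 6.47 and 6.82 in the mild line and at 6.47, 6.75, 6.32, 6.58 and 6.47 in the severe line. It was then detected on 1 of 5 arrays in each line and on none in wild type.

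Among the fibrillar and basement membrane chains, only *Col1a2* and *Col4a5* were past the threshold at 3 weeks, both in the severe line. *Col1a2* was the fibrillar gene that passed, at 7.85, 7.73 and 7.97 in the severe line against 7.28 to 7.55 in wild type (difference 0.39, SE 0.10, adjusted p = 0.0263). *Col1a1* was at 10.17, 9.02 and 9.59 in the severe line (difference 0.71, SE 0.28, adjusted p = 0.176) and at 9.24, 9.25 and 9.14 in the mild line (difference 0.33, adjusted p = 0.789). Its severe line array 2 lay inside the wild type range. *Col4a1* was at 12.90, 12.67 and 13.30 in the severe line (difference 0.37, adjusted p = 0.0719) and at 13.03, 12.88 and 12.87 in the mild line (difference 0.34, adjusted p = 0.166). *Col15a1* was at 10.92, 10.19 and 10.62 in the severe line (difference 0.47, adjusted p = 0.0633) and at 10.65, 10.47 and 10.68 in the mild line (difference 0.49, adjusted p = 0.0814). For *Col4a1* both lines lay above the wild type arrays throughout, and for *Col15a1* the severe line array 2 did not.

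Severe line array 2 of 3 weeks was the lowest of its group in 18 of the 19 genes that rose in this line at 24 weeks, with a median deviation of -0.29 from the group mean. These 19 genes were picked by their call, and how often array 2 was lowest over all genes was not counted. *Celf4* was at 12.08, 11.19 and 12.72 on the 3 arrays of that group, so array 2 was lowest there too. Without array 2, 13 of the 32 collagen genes were called at 3 weeks, and without wild type array 1 of that age, severe line array 1 or severe line array 3, 3 were. The shares of all genes called in these fits were not counted. *Col4a5* (0.48, adjusted p = 0.0462) lost its call in each of the 7 such fits. The part of array 2 in these results was not tested beyond these counts.

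Between the lines at 3 weeks, 0 of 32 collagen genes passed in limma, where 0.450% of all genes were higher in the severe line. At an unadjusted p under 0.05, 3 were higher and 1 lower, where 796 of all 12011 genes passed in either direction. *Col22a1*, at 0.77 (SE 0.19, adjusted p = 0.0716), came nearest, followed by *Col26a1* at -0.37 (SE 0.13, adjusted p = 0.378) and *Col8a1* at 0.71 (SE 0.26, adjusted p = 0.468). Without severe line array 2, 2 genes passed, and the share of all genes in that fit was not counted.

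**Figure D4:**
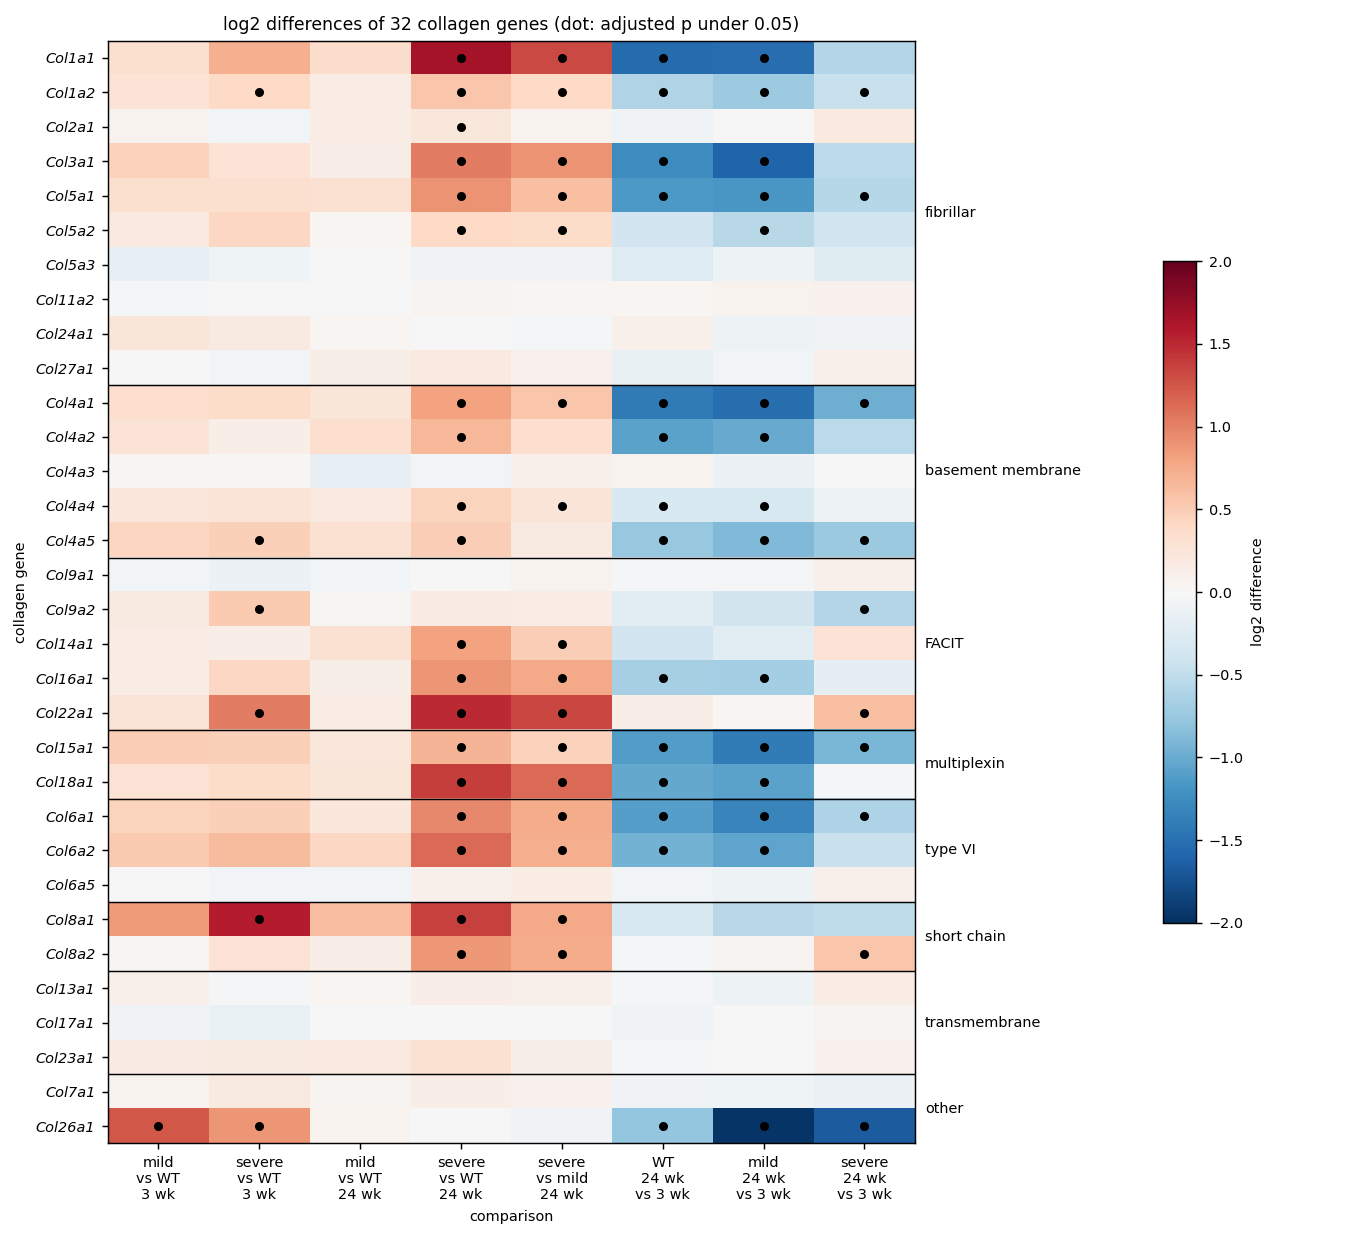
log2 differences of the 32 collagen genes tested (rows, by class) in 8 comparisons (columns; red: first named group higher, blue: lower; dot: adjusted p under 0.05). In the severe line at 24 weeks 19 rows carry a dot and in the mild line at that age none does, and the columns of age hold 14 lower genes in wild type, 15 in the mild line and 8 in the severe line, where 2 rose.

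The difference from wild type at 24 weeks was set against that at 3 weeks in a test of the difference itself, which is also the test of whether a line changed with age otherwise than wild type. In the severe line 1 of 32 collagen genes passed, *Col26a1*, whose difference became lower by 0.89 (SE 0.16, adjusted p = 0.0048), where 0.233% of all genes became lower. In the mild line *Col26a1* was again the gene that passed, with a change of -1.18 (adjusted p = 0.00211), where 0.05% of all genes became lower. Since its probe was detected on no wild type array at 24 weeks, the size of these changes is that of probe levels near background. For the other genes the larger count of calls at 24 than at 3 weeks is not a shown difference between ages. *Col18a1* came closest, with a severe line difference larger by 1.00 at 24 weeks (SE 0.24, adjusted p = 0.0578). *Col1a1* had 0.96 (SE 0.37, adjusted p = 0.37), *Col14a1* 0.67 (adjusted p = 0.117) and *Col5a1* 0.58 (adjusted p = 0.124), while *Col8a1* had -0.20 (adjusted p = 0.989). At an unadjusted p under 0.05, 11 of the 32 genes became higher in the severe line and 2 lower, where 1002 of all 12011 genes passed in either direction.

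Several genes have a second probe on the array, and it did not always show the size seen with the brightest one. For *Col8a1* the second probe gave 1.26 at 3 weeks and 1.56 at 24 weeks in the severe line, close to the first. The second probe of *Col18a1* gave 0.44 (adjusted p = 0.00428) at 24 weeks and that of *Col14a1* 0.40 (adjusted p = 0.0443), both called and both smaller. For *Col3a1* the second probe gave 0.16 (adjusted p = 0.468), for *Col5a2* 0.03 (adjusted p = 0.891), and the third probe of *Col6a1* gave 0.10 (adjusted p = 0.672), while its second gave 0.88. The calls of *Col3a1* and *Col5a2* thus rest on 1 probe. So do those of *Col1a1*, *Col1a2*, *Col4a1*, *Col4a2*, *Col5a1*, *Col15a1* and *Col16a1*, which have no other probe on the array. The second probe of *Col22a1* was detected on no array. For *Col23a1*, a transmembrane collagen, the dimmer probe was called at 0.28 (adjusted p = 0.0143) and the brighter one, at 0.31 (adjusted p = 0.147), was not.

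Genes that make, process and join collagen were read beside the chains. Of 19 genes of collagen folding and modification 5 were higher in the severe line at 24 weeks and 0 lower, with a median of 0.20, where 8.26% of all genes were higher. *P3h2*, a prolyl 3-hydroxylase that acts on basement membrane collagen, rose by 1.30 (SE 0.15, adjusted p = 1.60e-06) at 24 weeks and by 1.09 (adjusted p = 3.68e-04) at 3 weeks. *Plod2*, the lysyl hydroxylase of the collagen ends, rose by 0.77 (adjusted p = 4.23e-04) and *Crtap*, a partner of prolyl 3-hydroxylase, by 0.54 (adjusted p = 0.00406). *Serpinh1*, the collagen chaperone HSP47, fell with age, by 0.81 (adjusted p = 0.02) in wild type, with -0.89 in the mild and -0.80 in the severe line. Mild line hearts had 0 of the 19 past the threshold at either age.

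Of 4 genes of procollagen processing 2 were higher in the severe line at 24 weeks, set against the same 8.26% of all genes. *Pcolce*, which enhances removal of the C-propeptide, rose by 1.16 (SE 0.18, adjusted p = 5.44e-05) and *Pcolce2* by 0.58 (adjusted p = 0.0286), and *Bmp1*, the protease itself, fell with age in wild type by 0.66 (adjusted p = 0.0284). Of 3 lysyl oxidase genes, whose enzymes cross-link fibres, *Loxl1* rose by 1.26 (SE 0.16, adjusted p = 5.30e-06) and *Lox* by 0.86 (adjusted p = 0.0052) in severe line hearts of 24 weeks, and *Lox* rose by 0.91 (adjusted p = 0.0258) at 3 weeks. *Loxl1* fell by 1.22 (adjusted p = 6.73e-05) with age in wild type. The difference of *Loxl1* from wild type in the severe line was larger at 24 than at 3 weeks by 1.04 (adjusted p = 0.0408). Among 6 receptor and uptake genes, *Itga11*, the integrin α11 chain that binds fibrillar collagen on fibroblasts, rose in the severe line at 24 weeks by 1.02 (SE 0.12, adjusted p = 3.80e-06) and in the mild line by 0.54 (adjusted p = 0.0306). It was the 1 gene of these 4 lists called between mild line and wild type hearts at either age.

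Markers of other heart cells were read beside the collagens. Of 12 fibroblast markers 4 were higher in the severe line at 24 weeks (*Dcn* 0.45, *Mfap5* 1.23, *Pdgfrl* 0.44 and *Tcf21* 0.45) and 0 lower, with a median of 0.37, where 8.26% of all genes were higher. Their summed linear level was 16845 to 24084 on the severe line arrays, without overlap with the 12971 to 16274 of wild type, and the mild line had 15182 to 16322. Of 5 markers of activated fibroblasts tested, *Comp* (2.85) and *Acta2* (1.49) were higher, and the summed level was 5870 to 8989 in wild type and 14479 to 29544 in the severe line. *Postn*, a defining gene of that state, had a difference of 0.16 (adjusted p = 0.147), and its probe was detected on no array of the other 5 groups. Of 9 pericyte and smooth muscle markers 4 were higher (*Acta2*, *Cspg4*, *Des* and *Tagln*) and 2 lower (*Abcc9* and *Kcnj8*). Of all 12011 genes 992 were higher and 879 lower in this comparison. *Acta2* is in this list and in that of activated fibroblasts. The summed levels of the 9 were 18215 to 26196 in wild type and 30039 to 54709 in the severe line, and these sums hide the 2 that fell. Of 9 endothelial markers 1 was higher, with a median of 0.05 and overlapping sums of 8982 to 11236 and 10154 to 12374. Of 6 macrophage markers 1, *Adgre1*, was higher, with sums of 2099 to 2479 and 2482 to 3182. The same 8.26% of all genes stands beside the counts of the activated fibroblast, endothelial and macrophage markers. With age in wild type 2 of the 12 fibroblast markers fell, *Mfap5* at -1.22 and *Thy1* at -0.62, where 1.61% of all genes fell. *Acta2*, at -0.84 (adjusted p = 0.0377), and *Adgre1*, at -0.38 (adjusted p = 0.0419), fell as well. The summed level of the 5 activated fibroblast markers was 10338 to 17454 at 3 weeks and 5870 to 8989 at 24 weeks, without overlap. *Acta2* was the 1 gene of these 5 that was called lower, and the median difference of the 5 was -0.09. The part of these cell types in the collagen differences was not tested.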

How the data were processed

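RNA of whole hearts was hybridised to Illumina MouseWG-6 v2 arrays. For each probe and array the authors deposited a raw intensity, a detection p-value and a log2 value after quantile normalization, and the sources used here do not name the software behind them. The log2 values as deposited and the detection p-values were used, and raw intensity only for alternatives. The other 48 per-sample columns, which hold bead standard errors and bead numbers, were not used. Gene symbols come from the platform annotation. Probes with a detection p-value under 0.05 on at least 3 of 24 arrays were kept, genes were represented by their brightest kept probe (34885 probes carry 1 symbol, 18 several and 10378 none), and all 6 groups were fitted once with limma 3.58.1 (lmFit, eBayes) in R 4.3.3 with the package data.table (version 1.17.8), with Benjamini-Hochberg adjustment over 12011 genes. The number of arrays limits the precision. Classes and lists follow gene names and textbook roles. Array values are given for 11 main chains of the heart and for any other collagen gene called with a log2 difference of 1 or more from wild type, and from each related list for up to 4 genes called most often. The members and lists were chosen with earlier results of these data known. Alternatives were background correction with normexp at an offset of 50, median scaling, other filters, other probes, array weights, blocks, subsets of arrays and leaving out each array. The change with age within a line, the genes detected on every array, the counts of arrays without overlap, the correlations of arrays within runs, and the fit without the 3 arrays bright for *Scgb1a1* were added after seeing the data. The fit was tested on simulated data. No probe had the symbol *Col6a3*, *Col12a1* or *Col20a1*, which are not analysed here.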

Additional observations from a re-analysis of the deposited data

Results flagged for a closer look

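Among 48 sets of array values, 4 or 5 arrays of 1 gene in 1 group, a single array stood far from the others in 3, and chance gives about 1 in 20. *Col18a1* was at 10.26 on wild type array 4 of 3 weeks, with the others at 10.10 to 10.13. *Col22a1* was at 7.64 on severe line array 5 of 24 weeks, with the others at 8.13 to 8.29. *Col6a2* was at 8.09 on wild type array 2 of 24 weeks, with the others at 8.34 to 8.37. The difference of *Col26a1* from wild type changed between 3 and 24 weeks by -1.18 in the mild line (limma adjusted p = 0.00211) and by -0.89 in the severe line (adjusted p = 0.0048), with the probe near background at 24 weeks.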

How the results depend on the processing

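None of the 58 collagen gene calls of the comparisons between groups, of age in wild type and of the change with age against wild type changed direction under the alternatives run. The calls of age within the mild and the severe line were not refitted. The share of all genes called was not counted under the alternatives, so the counts below are of collagen genes alone. Over the 58 calls, 722 refits under other settings kept the call and 118 lost it, and leaving out 1 array at a time kept it 480 times and lost it 44 times. 9 calls were never lost. Most losses came in the fits of 1 background set alone, with 46 lost in the lower and 28 in the higher set, where groups have 1 to 3 arrays and the wild type arrays of the 2 ages come from litters of different lines. In the lower set the counts of collagen genes called were 0 for the severe line at 3 weeks (6 with all arrays), 6 for it at 24 weeks (19), 4 for the severe against the mild line at 24 weeks (16), 1 for age in wild type (14) and 0 for both tests of change with age. In the higher set they were 1 for the severe line at 3 weeks, 3 for the severe against the mild line at 24 weeks, 9 for age and 0 for the change with age in the mild line. The median difference over the 32 genes was 0.49 and 0.45 within the sets for the severe line at 24 weeks, and -0.33 and -0.31 for age in wild type. Scaling to a common median moved the median of all genes by up to 0.11 and left 4 of the 14 calls for age in wild type, with a collagen median of -0.22. Array weights gave 5 calls for the mild line and 17 for the severe line at 3 weeks, 1 between the lines at 3 weeks and 2 for the severe line change with age. Fitting only the groups compared gave 5 for the mild line at 3 weeks, and the runs of 6 arrays as a block gave 4. Normexp correction, a detection p-value under 0.01 and the replicate block each gave 2 for the severe line change with age, and the wild type arrays of the own line alone gave 0. The replicate block also gave 3 for the mild line at 3 weeks. The labels name no pairing of mice by replicate number, and same-numbered arrays had a correlation over 0.1 in 25 of 60 pairs (median 0.064). The number equals the run of 6 arrays on 18 of the 24 arrays, so the replicate block is in part a block of runs. Arrays of 1 run had a correlation over 0.1 in 33 of 58 pairs (median 0.159), and arrays of different runs in 45 of 180 (median -0.055). With single arrays left out the calls ranged over 1 to 1 for the mild line at 3 weeks, 0 to 0 for it at 24 weeks, 3 to 13 and 19 to 21 for the severe line, 0 to 2 and 13 to 16 between the lines, 12 to 13 for age in wild type, and 1 to 1 and 1 to 2 for the change with age. The 13 came without severe line array 2 of 3 weeks, and so did the 2 between the lines. Without the 3 arrays bright for *Scgb1a1* the calls were 4 and 18 for the severe line at 3 and 24 weeks, 13 between the lines at 24 weeks and 12 for age in wild type, and 8 gene calls were lost. *Col6a2* and *Col4a4* lost their call for age in wild type on leaving out 8 and 6 of 8 arrays. Genes near background, such as *Col2a1* and *Col5a2*, have bounds rather than folds.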
